A study of Mus musculus with 6 samples.

Results

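The Myc, Max and Mxd network comprised 9 genes, Myc, Mycn, Max, Mxd1, Mxd3, Mxd4, Mxi1, Mnt and Mlx, which were picked by symbol from the 48397 genes of the deposited count table. All 9 had a row, and 8 passed the filter on low counts, Mycn being the exception. The study asked how weaker signaling by the T cell antigen receptor (TCR) alters gene expression in the earliest thymic precursors of invariant natural killer T (iNKT) cells. BALB/c mice with wild-type Zap70 were compared with SKG mice, which carry a hypomorphic mutation of the TCR-proximal kinase Zap70 on the same BALB/c background, and no treatment is named for either. Both genotypes were 8 to 10 weeks old and gave 3 libraries each. Every library came from stage 0 iNKT cells of 3 pooled thymi, of which about 1000 cells were recovered after sorting for CD1d tetramer binding, CD24 and CD69 against CD44 and CD8 and with low or no CD4, each replicate therefore representing pooled and not single animals.

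Myc is a transcription factor of the basic helix-loop-helix leucine zipper class that promotes cell growth, ribosome production and proliferation, and in T cells its gene is induced by TCR signals. It binds DNA only as a heterodimer with Max, at the E-box sequence CACGTG. Mxd1, Mxi1, Mxd3, Mxd4 and Mnt compete for Max and for the same E-box, and recruit Sin3 and histone deacetylases to repress transcription. Mlx is a Max-like partner that pairs with some Mxd proteins, with Mnt and with the glucose-responsive factors encoded by Mlxip and Mlxipl.

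The E-box itself lies in the promoters of some network genes. RefSeq promoter windows (GRCm38.p6, 250 bases before to 50 bases after the annotated start) were at hand for 8 of the 9 members, Myc having none, and 4 of the 8 held CACGTG, which reads the same on both strands. Counted by window, 4 of the 10 windows of members (40.0%) held it. In comparison, 10.4% of 10733 windows of tested genes and 7.15% of all 32851 windows held it. The 30 bases around each E-box are shown 5′ to 3′ on the strand of the gene, with the E-box in capitals and its first base counted from the start site, because this is the sequence that Myc-Max and Mxd-Max dimers both recognize.
Max, chr12:76962234-76962263, minus strand, E-box from position -3: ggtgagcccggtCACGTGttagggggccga
Mlx, chr11:101087238-101087267, plus strand, E-box from position -40: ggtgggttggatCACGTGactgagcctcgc
Mnt, chr11:74830789-74830818, plus strand, E-box from position -123: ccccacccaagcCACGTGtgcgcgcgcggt
Mxd4, chr5:34187912-34187941, minus strand, E-box from position -219: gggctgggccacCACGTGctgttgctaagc
The windows of Mxd1, Mxd3, Mycn and the 3 windows of Mxi1 did not hold these letters. A match describes the sequence and does not show that a factor binds there.

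Libraries were of similar depth, with 37176544 to 43115544 reads counted on genes, but genes detected with 10 or more reads numbered between 10835 (SKG replicate 3) and 14791 (SKG replicate 1). Calls required an adjusted p (FDR) under 0.1 together with a 1.5-fold difference. By this rule the quasi-likelihood test of edgeR made 0 calls among 12312 genes (0%), while 671 (5.45%, made up of 3.07% with higher SKG and 2.38% with higher BALB/c levels) had an unadjusted p under 0.05. DESeq2 made 370 calls among 14342 genes (2.58%) without shrinkage of fold changes and 231 (1.67%) with it. Zap70 mRNA, whose mutation cannot be seen in counts per gene, was at 448 ± 65.4 CPM (reads scaled to library size, mean ± SD, n = 3) in BALB/c and 356 ± 45.9 in SKG, with overlapping libraries. The stage 0 markers Cd69, Egr2, Zbtb16, Cd3e and Trac were detected in every library, whereas Tbx21, which defines mature iNKT1 cells, was at 0 reads in all 6. The summed level of 6 stage 0 markers was 3277 to 4046 CPM in BALB/c and 2783 to 3177 in SKG. Cd69 and Egr2 were higher in every BALB/c library. Of the sum, Egr2 made up 1351 ± 230 CPM (SD, n = 3) in BALB/c and 777 ± 249 in SKG. Zbtb16, Cd3e and Trac overlapped between the genotypes. Cd24a, used in the sort, overlapped as well, at 52.4, 7.31 and 15.6 CPM in BALB/c and 31.9, 88.6 and 90.7 in SKG. The part of these markers in the values of the network was not tested. In bulk RNA, fewer cells that express a gene and less RNA per cell cannot be told apart.

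Of the network, Myc showed the clearest difference. The gene lies on the plus strand of chromosome 15, between positions 61985391 and 61990374 of GRCm38. Myc received 17568, 14120 and 16871 reads in BALB/c replicates 1 to 3 and 5765, 6734 and 4382 in SKG replicates 1 to 3. Scaled to library size, these were 426, 381 and 374 CPM against 143, 173 and 121 CPM. The lowest BALB/c library was thus above the highest SKG library. The means were 393 ± 28.4 and 146 ± 26.1 CPM (SD, n = 3), a log2 fold change of -1.43 for SKG over BALB/c with a standard error (SE) of 0.18, an unadjusted p of 0.000123 and an adjusted p of 0.328 from edgeR. Myc therefore did not pass the FDR threshold of the quasi-likelihood test. DESeq2 without shrinkage did call it, with a log2 fold change of -1.41 (SE 0.23, DESeq2 adjusted p = 1.20e-06), and Myc was the only member that either DESeq2 fit called. When DESeq2 was rerun with each library left out in turn, Myc was called in all 6 fits, with log2 fold changes between -1.55 and -1.29 and adjusted p of at most 0.000419.

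Mycn, which encodes a Myc paralog used by other tissues and early progenitors, was nearly absent. All 3 BALB/c libraries had 0 reads, and the SKG libraries 5, 1 and 0. A count of 0 allows up to 0.0727, 0.0809 and 0.0664 CPM in BALB/c replicates 1 to 3, counting 3 reads as the limit and covering counting error only. No fold change is given for it. Mycl, the remaining Myc paralog, had 1 and 3 reads in SKG replicates 1 and 3 and 0 elsewhere, so that reads of the Myc gene group came almost entirely from Myc itself.

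**Figure D1:**
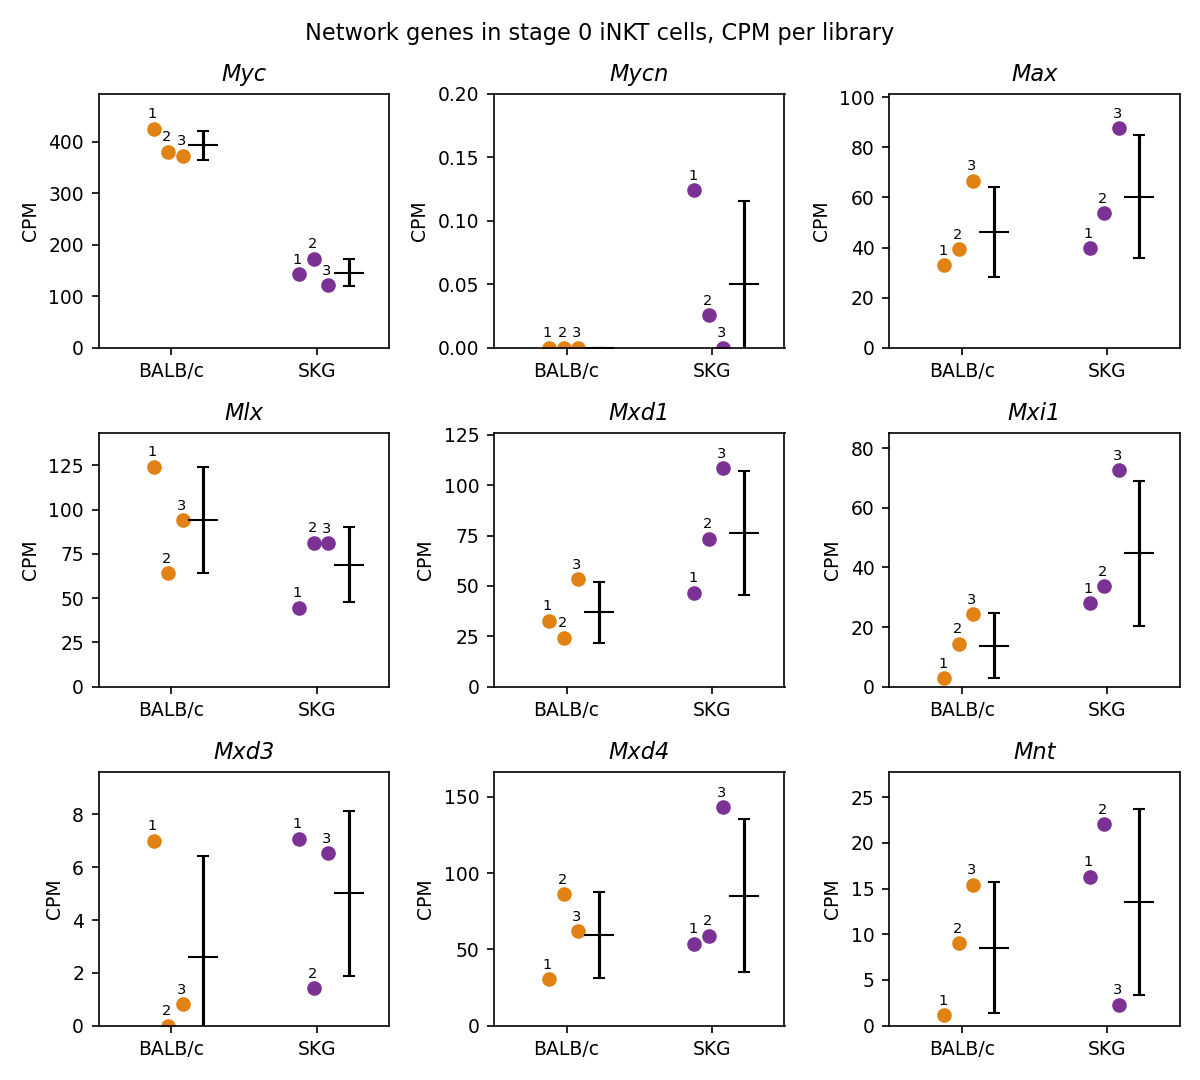
Expression of the 9 network genes in CPM (y axis, linear, starting at 0) in BALB/c (orange) and SKG (purple) stage 0 iNKT cells. Each numbered point is the library of that replicate, and the bar is the mean ± SD of 3 libraries. The libraries of the genotypes are apart for Myc, higher in BALB/c, and for Mxi1, higher in SKG, and overlap for the other genes.

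Max, the obligate partner of Myc and of the Mxd proteins, was at 32.9, 39.3 and 66.7 CPM in BALB/c and 39.7, 53.7 and 87.7 CPM in SKG. These ranges overlapped widely. Its log2 fold change was 0.38 (SE 0.44, edgeR adjusted p = 0.991), and with 1 library left out it varied from 0.03 (SKG replicate 3 omitted) to 0.74 (BALB/c replicate 3 omitted). The Max gene is on the minus strand of chromosome 12, from 76937269 to 76962201.

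Mlx, on chromosome 11 between 101087277 and 101092207, was at 124, 64.2 and 93.9 CPM in BALB/c and 44.6, 81.2 and 81.0 CPM in SKG. The highest and the lowest library thus belonged to different genotypes, but the remaining 4 were interleaved, and the log2 fold change was -0.45 (SE 0.36, edgeR adjusted p = 0.991). Counting ignored strand, and 385 bases (19.3%) of the exons of Mlx overlap exons of Psmc3ip on the opposite strand, so that reads there cannot be attributed to one of the genes by strand. Smaller overlaps of this kind covered 6.06% of the exon bases of Mxd4 (Gm42846), 4.43% of those of Mxd3 (Prelid1) and 2.84% of those of Mxi1 (Gm10197).

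Mxi1, which encodes a Max-binding repressor of the Mxd family, was the other member with genotypes apart. It occupies positions 53310518 to 53375810 of chromosome 19. Its reads numbered 113, 533 and 1096 in BALB/c and 1125, 1310 and 2626 in SKG, which amounts to 2.74, 14.4 and 24.3 CPM against 27.9, 33.7 and 72.6 CPM. All 3 SKG libraries were above all BALB/c libraries, although SKG replicate 1 and BALB/c replicate 3 lay close together and the BALB/c libraries spread widely. The log2 fold change of 1.70 had a standard error of 0.85 and did not pass the test (unadjusted p = 0.0874, adjusted p = 0.952, edgeR). DESeq2 without shrinkage gave 1.72 (DESeq2 adjusted p = 0.463). Leaving out BALB/c replicate 3, the highest of its group, raised the edgeR estimate to 2.39, and leaving out SKG replicate 3 lowered it to 1.17. Over all tested genes the libraries of the genotypes were apart for 13.9% (6.77% with SKG above BALB/c, 7.12% with BALB/c above SKG), and over the 8 tested members for 2, 1 in each direction.

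Mxd1 encodes a repressor linked to the exit of cells from proliferation. It was at 32.7, 24.4 and 53.4 CPM in BALB/c and 46.7, 73.5 and 108 CPM in SKG, so that only SKG replicate 1 and BALB/c replicate 3 crossed. The log2 fold change was 1.05 (SE 0.45, unadjusted p = 0.0550, adjusted p = 0.936, edgeR) and stayed between 0.72 and 1.42 with 1 library left out. The gene is on the minus strand of chromosome 6, from 86647042 to 86669161.

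Mxd4, on chromosome 5 from 34173883 to 34187720, was at 30.4, 86.1 and 61.9 CPM in BALB/c and 53.6, 58.8 and 143 CPM in SKG, so that SKG replicates 1 and 2 lay within the BALB/c range. Its log2 fold change of 0.52 (SE 0.54, edgeR adjusted p = 0.991) rested on SKG replicate 3, since it was -0.068 without that library. Mxd3, a member associated with cycling cells, was the lowest of the tested members, with 289, 0 and 37 reads in BALB/c and 285, 55 and 236 reads in SKG. BALB/c replicate 1 and SKG replicate 1 were nearly equal at 7.01 and 7.07 CPM, and the log2 fold change of 0.94 had a standard error of 1.94. Without BALB/c replicate 1 it became 3.60. Mxd3 is located on chromosome 13, from 55325168 to 55329823.

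Mnt, a more broadly expressed antagonist of Myc on chromosome 11 (74830920 to 74845725), varied among replicates more than between genotypes. BALB/c replicates 1 to 3 gave 47, 334 and 696 reads of Mnt, and SKG replicates 1 to 3 gave 657, 856 and 83. Its lowest libraries, BALB/c replicate 1 and SKG replicate 3, were also those with the fewest genes detected, 11415 and 10835 with at least 10 reads. The part of this in the values of Mnt was not tested. The log2 fold change was 0.67 (SE 1.21, edgeR adjusted p = 0.991), and without BALB/c replicate 3 it was 1.43.

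**Figure D2:**
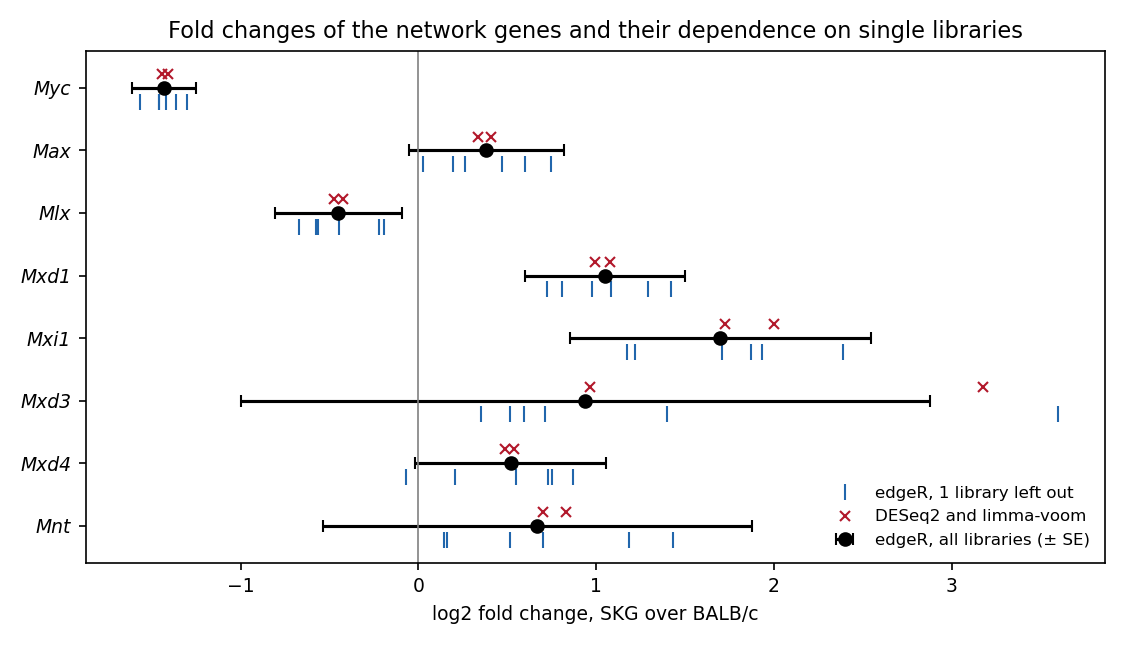
Log2 fold change of SKG over BALB/c (x axis) for the 8 tested network genes. Black points and bars give the edgeR estimate ± standard error from all 6 libraries, blue ticks the estimates with 1 library left out, and red crosses those of DESeq2 without shrinkage and limma-voom. All estimates of Myc lie between -1.56 and -1.30, whereas those of Mxd4 reach both sides of 0 and those of Mxd3 extend to 3.60.

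Mxd1, Mxd3, Mxd4, Mxi1 and Mnt had positive log2 fold changes, that of Mxd4 only with SKG replicate 3 included, while those of Myc and Mlx were negative. With Max, 6 of the 8 tested members were above 0, beside 49% of all tested genes. The median log2 fold change of the 8 was 0.59, beside -0.02 over all tested genes, and it was 0.20 without BALB/c replicate 1, which had the lowest level of Max, Mxd4, Mxi1 and Mnt in its genotype. No antagonist passed the test in edgeR, in either DESeq2 fit or in limma-voom.

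To compare genes with each other, CPM were divided by the length of the merged exons in kilobases. On this scale of levels per kb, Myc was the highest network gene in every library. In BALB/c the order was Myc (145 ± 10.5 CPM per kb, SD, n = 3), Mlx (47.1 ± 15.0), Max (12.9 ± 4.99), Mxd4 (7.01 ± 3.29), Mxd1 (5.21 ± 2.11), Mxi1 (2.02 ± 1.58), Mnt (1.84 ± 1.54) and Mxd3 (1.10 ± 1.62). Myc, Mlx and Max did not overlap with each other among the BALB/c libraries, and each further neighbor in the order overlapped with the next. In SKG the levels per kb were 53.7 ± 9.62 for Myc, 34.5 ± 10.5 for Mlx and 16.8 ± 6.86 for Max, followed by Mxd1 (10.8 ± 4.37), Mxd4 (10.0 ± 5.92), Mxi1 (6.56 ± 3.56), Mnt (2.93 ± 2.19) and Mxd3 (2.11 ± 1.32). Among these only Myc and Mlx were separate neighbors. With the longest transcript as length, Mxd4 (18.4) came before Mxd1 (16.3) in SKG.

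As a share of the per-length total of the 9 genes, Myc made up 65.4%, 69.8% and 61.1% in BALB/c replicates 1 to 3 but 48.1%, 43.4% and 28.7% in SKG replicates 1 to 3. The total itself was 222 ± 19.7 CPM per kb in BALB/c and 137 ± 24.4 in SKG. The summed level of Mxd1, Mxi1, Mxd3, Mxd4 and Mnt was 11.8, 17.6 and 22.1 CPM per kb in BALB/c and 23.5, 27.6 and 46.1 in SKG, again without overlap. Per library, the ratio of Myc to this sum was 13.3, 7.94 and 6.23 in BALB/c and 2.24, 2.31 and 0.968 in SKG, so that in SKG replicate 3 the antagonists together slightly exceeded Myc. With the longest transcript as length, the ratio was 9.91, 5.68 and 4.77 in BALB/c and 1.76, 1.82 and 0.712 in SKG. The ratio of Myc to Max was 17.1, 12.8 and 7.42 in BALB/c and 4.77, 4.27 and 1.83 in SKG. These sums and ratios describe the libraries and were not tested, since an exact permutation test of 3 against 3 libraries cannot give a p below 0.1. They concern mRNA, and protein levels were not measured here.

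**Figure D3:**
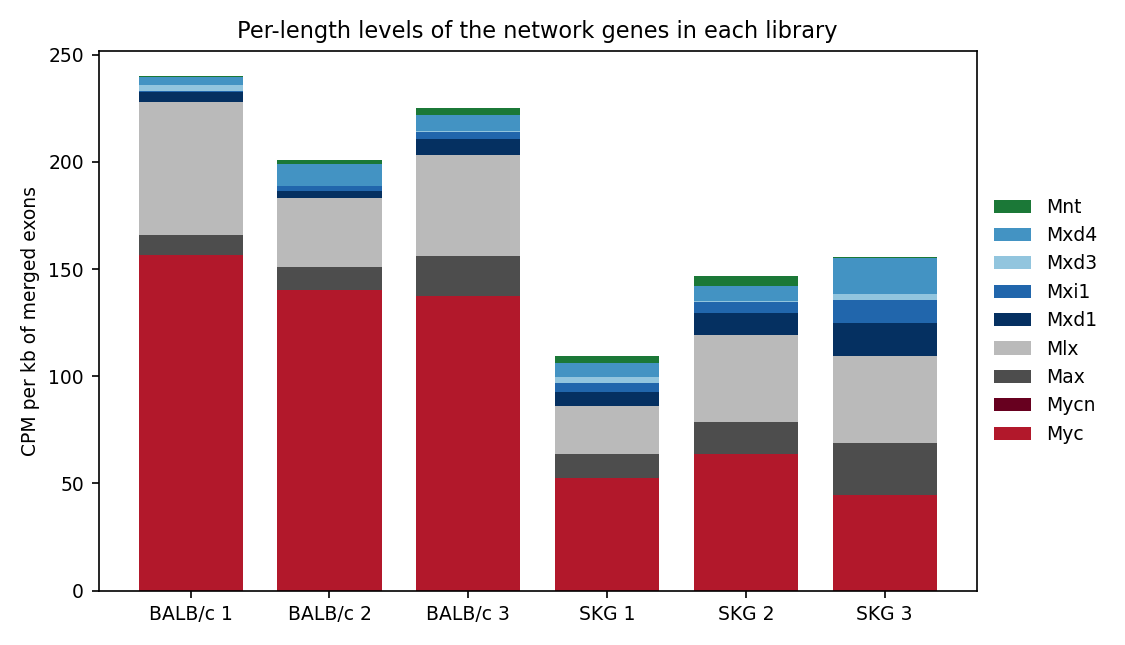
Stacked levels of the 9 network genes in CPM per kb of merged exons (y axis, linear from 0) in each of the 6 libraries (x axis). Myc (red) fills 61.1% to 69.8% of the BALB/c bars and 28.7% to 48.1% of the SKG bars, and the Mxd genes and Mnt (blue and green) take more of the SKG bars.

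The extended network includes Mga, whose product is a large Max-binding protein, and the Mlx partners Mlxip and Mlxipl. Mga was at 101 ± 57.6 CPM (SD, n = 3) in BALB/c and 64.0 ± 46.9 in SKG, a log2 fold change of -0.65 (edgeR adjusted p = 0.991). Mlxip was at 80.4 ± 8.02 and 99.0 ± 31.6 CPM, and Mlxipl did not exceed 37 reads in any library. None of the 3 genes tested had an unadjusted p under 0.05. The same was true of all 7 tested genes among other E-box-binding factors such as Usf1, Usf2, Tfe3 and Tfeb, with a median log2 fold change of -0.06. Those with the smallest p included Tfe3, at a log2 fold change of -0.63, and Tfeb, at 1.25, which encode regulators of lysosomal genes.

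The lists of cofactors had medians of -0.04, close to that of all tested genes. Of 15 Myc cofactors, 1 (6.67%, beside 5.45% of all tested genes) had an unadjusted p under 0.05, Kat2a (Gcn5), a histone acetyltransferase, at 95.4 ± 26.4 CPM in BALB/c and 161 ± 16.0 in SKG (log2 fold change 0.75, SE 0.25, edgeR adjusted p = 0.833). Log2 fold changes of the next genes by p were 0.37 for Zbtb17 (Miz1), through which Myc represses genes, -0.30 for the helicase gene Ruvbl2 and -0.28 for the scaffold gene Trrap. Among the 14 genes of Sin3, histone deacetylase and related corepressor complexes, through which Mxd proteins act, 0 reached an unadjusted p under 0.05. Suds3, a Sin3 subunit, was the one gene of that list with the genotypes apart, or 7.14% beside 13.9% of all tested genes (30.3 ± 13.0 against 60.6 ± 12.1 CPM, unadjusted p = 0.0607, edgeR). Ing2 and Sap30, also of Sin3 complexes, had log2 fold changes of 0.81 and -0.48.

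Of 19 tested genes that act on the stability of Myc protein, 4 had an unadjusted p under 0.05, beside 5.45% of all tested genes, and 0 an FDR under 0.1. Pim2, a kinase that stabilizes Myc, was at 72.0 ± 26.9 CPM in BALB/c and 24.5 ± 2.18 in SKG (log2 fold change -1.55, SE 0.39, edgeR adjusted p = 0.686). Huwe1, a ubiquitin ligase that targets Myc, was at 175 ± 55.4 against 94.2 ± 22.5 CPM, with overlapping libraries. Ppp2ca and Ppp2r5a, a catalytic and a regulatory subunit of the phosphatase PP2A that dephosphorylates Myc, were higher in SKG, at 244 ± 59.9 against 456 ± 136 CPM and 62.6 ± 5.82 against 107 ± 14.2 CPM. Ppp2r1a, the scaffold subunit of PP2A, went the other way, at 413 ± 58.6 CPM in BALB/c and 331 ± 40.6 in SKG (unadjusted p = 0.101, edgeR). DESeq2 without shrinkage called Pim2 (DESeq2 adjusted p = 0.0176) and Ppp2r5a (DESeq2 adjusted p = 0.0228) on this list, beside 2.58% of all genes. The genotypes were apart for 7 of the 19 (36.8%), with Pim2 and Ppp2r1a among those higher in BALB/c and Aurka, Pim1, Ppp2ca and Ppp2r5a higher in SKG, beside 13.9% of all tested genes. Aurka and Pim1 were low, with 1 read each in BALB/c replicate 1 and BALB/c means of 5.27 and 4.02 CPM. Their unadjusted p in edgeR were 0.208 and 0.287. This list mixes genes that stabilize and genes that destabilize Myc, and its median was -0.07, or 0.20 without BALB/c replicate 2.

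Genes that Myc is known to induce for growth, such as nucleolar factors, translation factors, metabolite transporters and mitochondrial chaperones, were mostly lower in SKG by small amounts. Of 49 genes, all tested, 35 (71.4%) had a negative fold change, beside 51% of all tested genes. Their median on the log2 scale was -0.19, beside -0.02 over all genes tested, and it stayed negative with each library left out, between -0.25 and -0.12. The genotypes were apart for 11 of the 49 (22.4%), all of them higher in BALB/c, where 7.12% of all tested genes were. These were Bop1, Eif4a1, Eif4e, Fbl, Hspd1, Hspe1, Ldha, Npm1, Ppan, Ran and Slc1a5. At an unadjusted p under 0.05 there were 4 (8.16%), all higher in BALB/c, beside 2.38% of all tested genes in that direction, and edgeR called 0 of them at the FDR threshold.

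Among these 4, Eif4a1, the RNA helicase of the translation initiation complex, had the smallest p. It was at 368 ± 41.8 CPM (SD, n = 3) in BALB/c and 237 ± 18.6 in SKG (log2 fold change -0.63, SE 0.15, edgeR adjusted p = 0.641), and it was the one gene of the list called by DESeq2 without shrinkage (DESeq2 adjusted p = 0.0516), which called 2.58% of all genes. Bop1, a factor of large ribosomal subunit assembly, was at 381 ± 56.4 against 265 ± 17.8 CPM. Ran, the GTPase of nuclear transport, was at 466 ± 75.3 against 332 ± 21.7 CPM. Ppan, another ribosome assembly factor, had a log2 fold change of -0.39. Summed over the list, the level was 16134 ± 999 CPM in BALB/c and 14254 ± 761 CPM in SKG, a smaller relative difference than that of Myc. RefSeq windows were at hand for 40 of the 49 genes, and 12 of the 51 windows (23.5%) held CACGTG. Among the 4 genes with an unadjusted p under 0.05, Eif4a1 and Ran had 1 each, the window of Ppan had none and Bop1 had no window. Their E-boxes are shown in the same form as those of the network genes.
Eif4a1, chr11:69672595-69672624, minus strand, E-box from position -189: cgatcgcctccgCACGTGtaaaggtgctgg
Ran, chr5:129020026-129020055, plus strand, E-box from position -118: gctcggccggccCACGTGacccgccgcccc

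Genes that Myc is known to repress had fold changes in both directions. Of 13 tested, 5 (38.5%) had a positive and 8 (61.5%) a negative fold change, beside 49% and 51% of all tested genes, with a median of -0.25, which became 0.16 without BALB/c replicate 2. Txnip, an inhibitor of glucose uptake that Mlx partners induce, was at 56.9 ± 25.4 CPM in BALB/c and 114 ± 29.2 in SKG (log2 fold change 1.00, SE 0.39, edgeR adjusted p = 0.877). Btg1, an antiproliferative gene, went the other way, at 459 ± 31.4 against 347 ± 39.0 CPM. These 2 genes had the genotypes apart (15.4% of the list, beside 13.9% of all tested genes). Btg2 and Gadd45a, which restrain the cell cycle, had log2 fold changes of -0.34 and -0.53 and overlapping libraries.

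Of 19 tested genes of DNA replication and mitosis, 10 (52.6%) had a negative fold change, beside 51% of all tested genes, and 1 (5.26%) an unadjusted p under 0.05, beside 5.45%. That gene was Mcm2, a subunit of the replicative helicase, at 470 ± 76.9 CPM in BALB/c and 341 ± 23.2 in SKG (log2 fold change -0.46, edgeR adjusted p = 0.834). Pcna, the sliding clamp of DNA polymerase, had a log2 fold change of -0.56 and was, with Mcm2, 1 of 2 genes of the list with the genotypes apart (10.5%, beside 13.9% of all tested genes). Ccne2 (cyclin E2) and Plk1 (a mitotic kinase) had log2 fold changes of 1.48 and -2.95, with overlapping libraries. The median of -0.24 became 0.09 without BALB/c replicate 1.

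**Figure D4:**
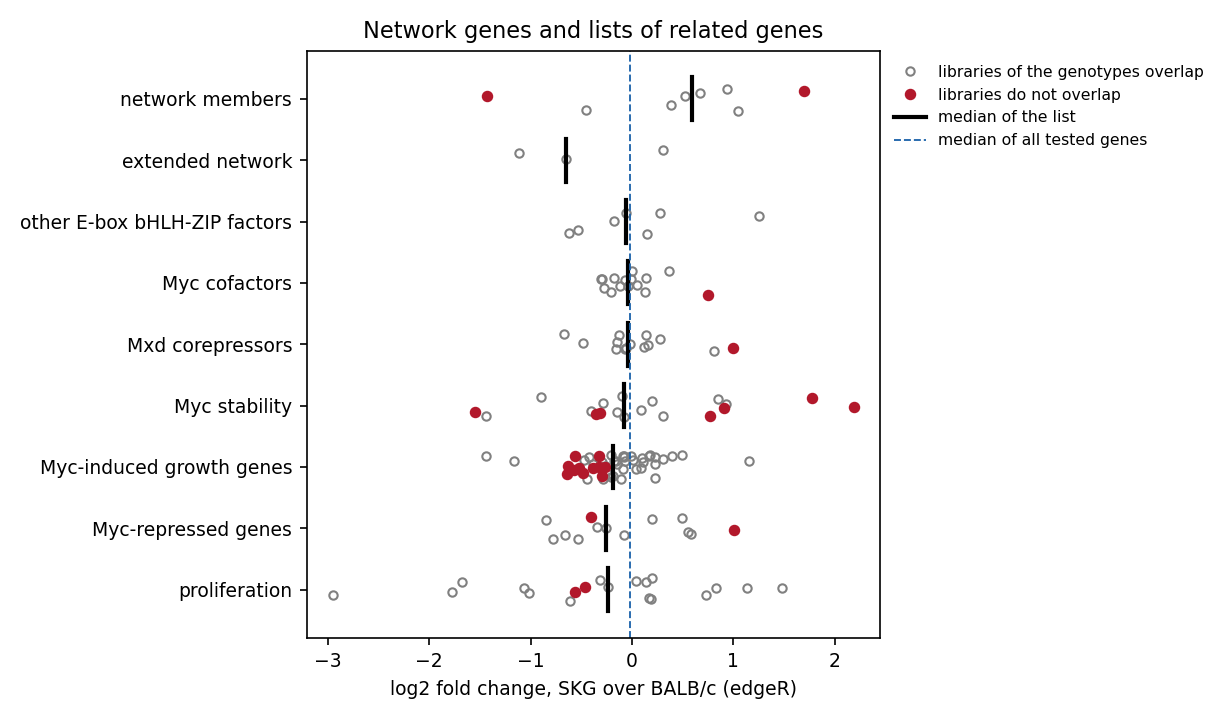
Log2 fold change of SKG over BALB/c in edgeR (x axis) for the tested genes of the network and of 8 lists of related genes (y axis, points shifted vertically at random). Filled red points are genes whose libraries did not overlap between the genotypes, black bars are list medians, and the dashed line is the median of all tested genes (-0.02). In the list of Myc-induced growth genes all 11 filled points lie below 0.

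The 5 genes whose log2 CPM followed Myc most closely over the 6 libraries, among 8377 genes with a mean of at least 10 CPM, were Trbv13-2 (Pearson's r = 0.995), Egr1 (0.985), AI506816 (0.984), Psat1 (0.983) and Lap3 (0.983). The 6 libraries form 2 groups of 3, so that genes clearly higher in BALB/c tend to score highly, and the values are a description without a test. Genes higher in SKG would have a negative r and could not be listed. Egr1, a TCR-induced transcription factor, was at 1784 ± 208 CPM in BALB/c and 942 ± 49.8 in SKG. Psat1, an enzyme of serine synthesis, was at 221 ± 11.6 against 129 ± 7.96 CPM, and Lap3, a leucine aminopeptidase, at 58.7 ± 9.87 against 27.3 ± 5.95 CPM. Trbv13-2, a TCRβ variable segment with near-identical neighbors, differed by a log2 fold change of only -0.26 (edgeR adjusted p = 0.959). The transcript AI506816 had 855, 534 and 1199 reads in BALB/c but 3, 5 and 2 in SKG.

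Summed levels of markers of mature iNKT stages and of other cell types overlapped between the genotypes. The haemoglobin gene Hba-a1 had 810, 1 and 20 reads in BALB/c replicates 1 to 3 and 0, 1 and 0 in SKG. Replicate 2 of both genotypes thus had the same count, and the gene did not pass the filter on low counts. The summed level of 7 markers of mature iNKT stages was 162 to 292 CPM in BALB/c and 223 to 314 CPM in SKG. That of 7 double-positive thymocyte markers was 43.0 to 423 CPM in BALB/c and 71.9 to 172 CPM in SKG, with the highest value in BALB/c replicate 1. The sum of 6 B-cell markers was 6.87 to 94.9 against 4.59 to 45.0 CPM, that of 8 myeloid markers 1.28 to 53.7 against 0.620 to 118 CPM, that of 6 erythroid markers 0.0270 to 69.7 against 0.0515 to 0.691 CPM, and that of 6 thymic epithelial markers 28.1 to 41.4 against 10.0 to 86.9 CPM. Markers at 0 reads in all libraries included Cd14 and S100a9, Alas2, and Krt5 and Psmb11, but none of the B-cell list. Other markers were detected, such as Hbb-bs with 1428 and Cd79a with 274 reads in BALB/c replicate 1. Fcgr3 had 385 and Cd79b 303 reads in SKG replicate 3, and Krt8 and Aire had 49 each in BALB/c replicate 3. Several of these sums came mostly from a single gene. Epcam was at 86.9 CPM and Lyz2 at 107 CPM in SKG replicate 3, and Ighm at 88.1 CPM in BALB/c replicate 1. Of the mature iNKT markers, Il2rb was at 224 ± 68.0 CPM in BALB/c and 240 ± 50.7 in SKG. BALB/c replicate 1 had the highest sums of the thymocyte, B-cell and erythroid lists and SKG replicate 3 those of the myeloid and epithelial lists, and these libraries had the lowest and the highest level of Mxi1. Their part in the values of Mxi1 was not tested. The log2 fold change of Myc was -1.36 without BALB/c replicate 1 and -1.30 without SKG replicate 3.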

How the data were processed

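RNA was measured by polyA RNA-sequencing in 3 BALB/c and 3 SKG libraries of sorted stage 0 iNKT cells, with single-end reads of 50 nt. The authors deposited raw counts per gene, which they made by aligning reads to GRCm38 with HISAT2 (v. 2.1.0) and counting exonic reads of mapping quality 10 or more with featureCounts (Subread v. 1.4.4), without strand. Some labels spell SKG as SGK, and the labels and the study's methods name different amplification kits. A further deposited table holds the authors' own comparison of the genotypes (fold changes and p-values from DESeq2 v. 1.14.1) and was not used.

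Counts were analyzed in R (v. 4.3.3) with edgeR (v. 4.0.16): filterByExpr, TMM factors and the quasi-likelihood test across all 12312 genes that passed, with Benjamini-Hochberg adjustment. Calls required an FDR under 0.1 together with a 1.5-fold difference. DESeq2 (v. 1.42.0, with and without shrunken fold changes), limma-voom (limma v. 3.58.1), other normalization factors and filters, blocks and leaving out each library were alternatives, and the script was tested on simulated counts. CPM use TMM-scaled library sizes. Standard errors given for edgeR were derived from its test, as the absolute log2 fold change over the square root of the F statistic. Depth was 37176544 to 43115544 counts, so that 3 reads, the limit set by a count of 0, equal 0.0664 to 0.0830 CPM. Samples were grouped by their labels. Libraries are separate pools of 3 mice, and p-values reflect the spread between pools. Positions and exon lengths are from GENCODE M21 (GRCm38), and promoter windows from RefSeq (GRCm38.p6).

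The members and the gene lists were chosen with earlier results of these data known. Named were all members, Zap70, up to 4 genes with the smallest p in each list, and the 5 genes most correlated with Myc. Other genes named as having separate libraries, as markers or as called by DESeq2 were picked by those criteria after their values were seen. A few genes that these rules would name are not reported here.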

Additional observations from a re-analysis of the deposited data

How the results depend on the processing

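Of 260 alternative values for 46 results, 236 kept their direction and their side of the threshold or moved within the replicate spread. Some of these could not differ, since an FDR limit of 0.05 reused the same fit and Mycn had 0 reads in BALB/c. For the tested members other than Myc, keeping their side of the threshold meant staying uncalled. edgeR called 0 genes, 2 without a filter on low counts, and 96 with its likelihood ratio test (chosen after seeing the data), whereas DESeq2 called 370 without and 231 with shrunken fold changes, and limma-voom 0 (968 at an unadjusted p under 0.05). Myc was called with log2 fold changes of -1.41 and -1.37 in these DESeq2 fits and -1.43 in the likelihood ratio test, and when DESeq2 without shrinkage was rerun without BALB/c replicates 1, 2 and 3 (-1.35, -1.42 and -1.45) or SKG replicates 1, 2 and 3 (-1.39, -1.55 and -1.29), a check also added after seeing the data. With edgeR it was not called with any library left out (-1.56 to -1.30). Its adjusted p ranged from 4.14e-08 (DESeq2 without shrinkage and without SKG replicate 2) to 1 (edgeR with a block) over all alternatives, and the cause of the gap between the tests was not tested. Leaving out 1 library gave ranges of 0.03 to 0.74 for Max, -0.67 to -0.19 for Mlx, 0.72 to 1.42 for Mxd1, 1.17 to 2.39 for Mxi1, 0.35 to 3.60 for Mxd3, 0.14 to 1.43 for Mnt and -0.068 to 0.87 for Mxd4, which reversed without SKG replicate 3. With the longest transcript in place of merged exons, levels per kb in BALB/c and SKG became 23.8 and 31.1 for Max, 7.89 and 16.3 for Mxd1 and 12.8 and 18.4 for Mxd4, that of Myc in BALB/c became 168, and shares became 8.93% and 17.0% for Max and 19.4% for Mlx in SKG. Between libraries of the same title or library number, deviations had correlations of -0.145 to 0.00289. These few values cannot show whether libraries were prepared together. With the replicate number of the titles or that of the libraries as a block, Myc was at -1.44 and -1.47, and edgeR called 0 genes, with 585 and 443 at an unadjusted p under 0.05. Library numbers were 2, 3 and 4 in BALB/c and 1, 2 and 3 in SKG. BALB/c replicate 3 and SKG replicate 1 were therefore alone in their blocks and did not inform the estimate of -1.47. With 3 pools per genotype, the standard errors of Mxd3, Mnt and Mxi1 were 0.85 to 1.94 on the log2 scale, and counting error and the spread between pools were not separated.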
